A study of Homo sapiens with 6 samples.

Results

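Autophagy genes were examined in K562 cells with knockdown of METTL3 or METTL14. The 40 genes were chosen by name, from the kinase complex that starts autophagy to the cargo receptors and the transcription factors TFEB and TFE3. Each symbol was matched to its Ensembl identifier in the deposited table of read counts, which held 61661 identifiers, and all 40 were found.

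K562 is a widely used leukemia cell line, derived from the blast phase of chronic myeloid leukemia. The series held 6 RNA-seq libraries, 2 for each of 3 groups, made from poly(A)-enriched mRNA of cells in logarithmic growth. The shCTR cells carried a pLent-U6-GFP-puro lentivirus with a nonsense sequence (genotype WT in the labels), the shMETTL3 cells carried the same vector with an shRNA against METTL3, and the shMETTL14 cells are labelled as METTL14 knockdown, with no further description of their shRNA in the sources used here. The shCTR and shMETTL3 lines were stable lines selected with puromycin, the METTL3 knockdown rests on a single shRNA, and nothing states that the 2 libraries of a group came from separate cultures. The p-values therefore measure the spread between these libraries, which may be technical.

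Macroautophagy encloses cytoplasm in a double membrane that then fuses with the lysosome. The ULK1 kinase complex starts it, the PIK3C3 lipid kinase complexes mark the membrane, ATG9A vesicles and the ATG2 and WIPI proteins supply and shape it, and a conjugation system related to ubiquitination attaches proteins of the ATG8 family (LC3 and GABARAP), which bind cargo receptors such as SQSTM1. METTL3 is the catalytic subunit of the complex that writes m6A on mRNA, METTL14 is its RNA-binding partner, and transcripts of ULK1 and of several ATG genes have been described as m6A targets in other cells.

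Library totals ran from 19292574 to 20115304 reads. METTL3 was at 90.5 and 90.3 CPM (read counts scaled to library size and TMM factor) in shCTR and at 52.5 and 46.7 in shMETTL3 cells, with a log2 fold change of -0.87 (SE 0.0783, adjusted p = 3.44e-07). METTL14 was at 33.2 and 34.2 CPM in shCTR and at 19.1 and 20.6 in shMETTL14 cells, with a log2 fold change of -0.76 (SE 0.0886, adjusted p = 1.4e-05). The target of the other shRNA did not pass the test in either line (METTL3 in shMETTL14 cells -0.14, adjusted p = 0.323, and METTL14 in shMETTL3 cells 0.13, adjusted p = 0.32). All 13 markers of K562 cells fixed for the check were above 3 reads in every library, with summed levels of 1992 to 1995 CPM in shCTR, 2188 to 2227 in shMETTL3 and 1984 to 2029 in shMETTL14. Of 11 monocytic or granulocytic markers, 8 (CD14, CSF1R, ELANE, FLT3, HOXA9, MPO, S100A8 and S100A9) were at 3 reads or fewer in all 6 libraries. The list summed to 52.7 to 53.7, 22.0 to 22.6 and 68.6 to 74.7 CPM in the same order of groups, and the lymphocyte list of 8 genes summed to 6.73 to 7.47, 9.77 to 10.6 and 7.58 to 7.96. The part of these differences in the results below was not tested.

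Transcript levels of autophagy genes moved little in either knockdown. Of the 40 genes, 37 passed the filter on low counts and were tested with edgeR's quasi-likelihood test, adjusted by the Benjamini-Hochberg method over all 17686 tested genes with a threshold of 0.05. In shMETTL3 cells 5 of the 37 (13.5%) were called, 4 higher (GABARAPL1, WIPI1, ATG4D and PINK1) and 1 lower (UVRAG), where 16.5% of all tested genes were called, 8.73% higher and 7.73% lower. In shMETTL14 cells 3 (8.11%) were called, GABARAPL1 and ULK1 higher and WIPI1 lower, against 6.69% of all tested genes, 3.43% higher and 3.26% lower. Between the knockdowns, WIPI1 and MAP1LC3B were higher and UVRAG and ATG16L2 lower in shMETTL3 than in shMETTL14 cells, which makes 4 of 37 (10.8%) against 12.1% of all tested genes, 6.65% higher and 5.49% lower. The shares of autophagy genes called were thus near those of all genes in all 3 comparisons. Both comparisons with shCTR use the same 2 control libraries.

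The sizes were small as well. The median absolute log2 fold change of the 37 genes was 0.11 in shMETTL3 and 0.09 in shMETTL14 cells, against 0.18 and 0.14 over all tested genes, and 0.07 between the knockdowns against 0.15. Log2 fold changes from shCTR ran from -0.26 to 0.42 in shMETTL3 cells and from -0.31 to 0.37 in shMETTL14 cells. The 95% interval lay within a 1.5-fold change in either direction for 36 of 37 genes in shMETTL3 cells, for all 37 in shMETTL14 cells and for 35 between the knockdowns. Over all 17686 tested genes it did so for 10468, 10984 and 10670. The autophagy genes were measured more closely, with a median interval half-width of 0.158, 0.156 and 0.158 against 0.238, 0.239 and 0.238. The part of this precision in their smaller changes was not tested. These intervals are those of the model, and with TMM scaling each change is relative to the remaining genes. In such bulk libraries, fewer cells with a transcript and less of it per cell cannot be told apart.

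**Figure D1:**
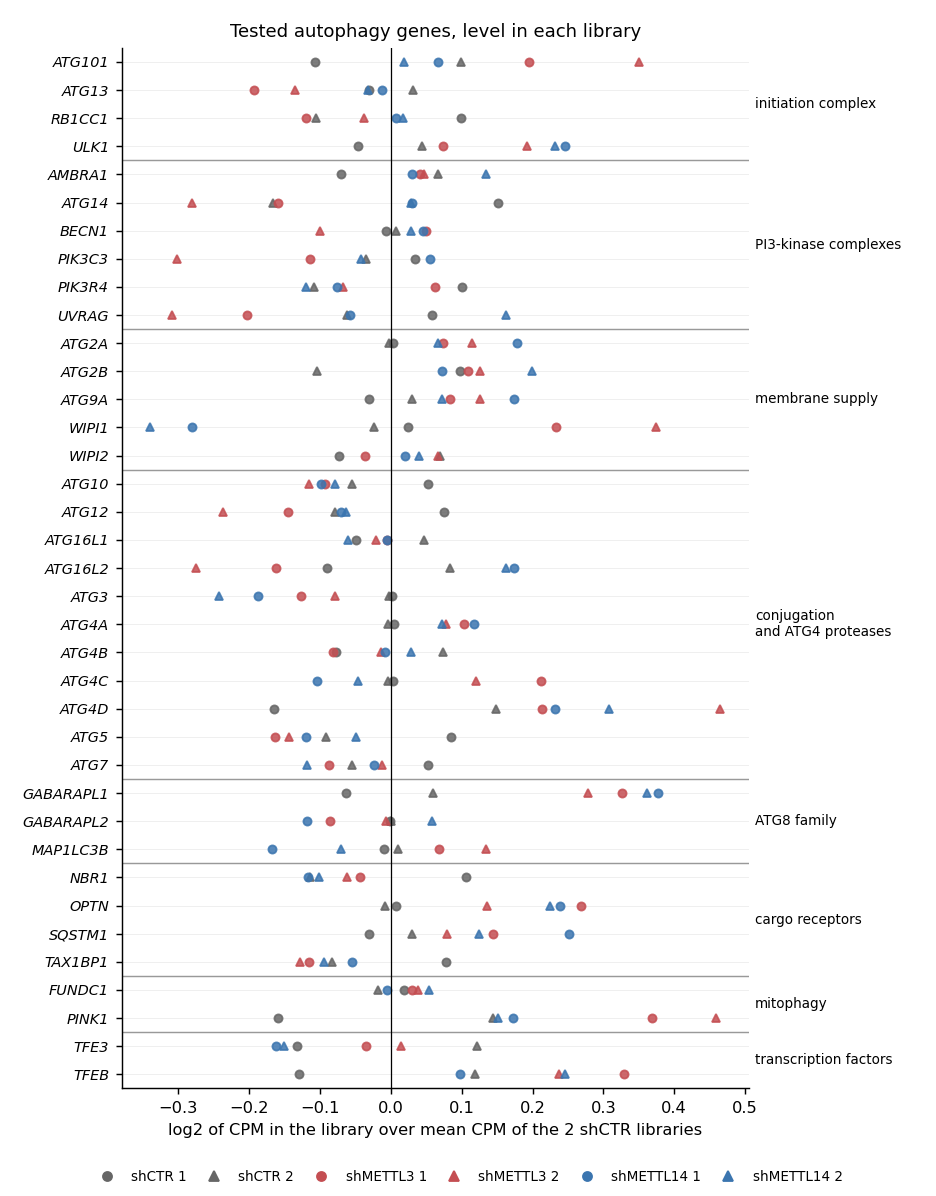
Level of each of the 37 tested autophagy genes in the 6 libraries, as log2 of the CPM over the mean CPM of both shCTR libraries (0), ordered by role; circles are replicate 1 and triangles replicate 2. WIPI1 has shMETTL3 to the right and shMETTL14 to the left of shCTR, GABARAPL1 has both knockdowns to the right, and several genes such as TFE3, ATG4D and PINK1 have widely spaced shCTR libraries.

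**Figure D2:**
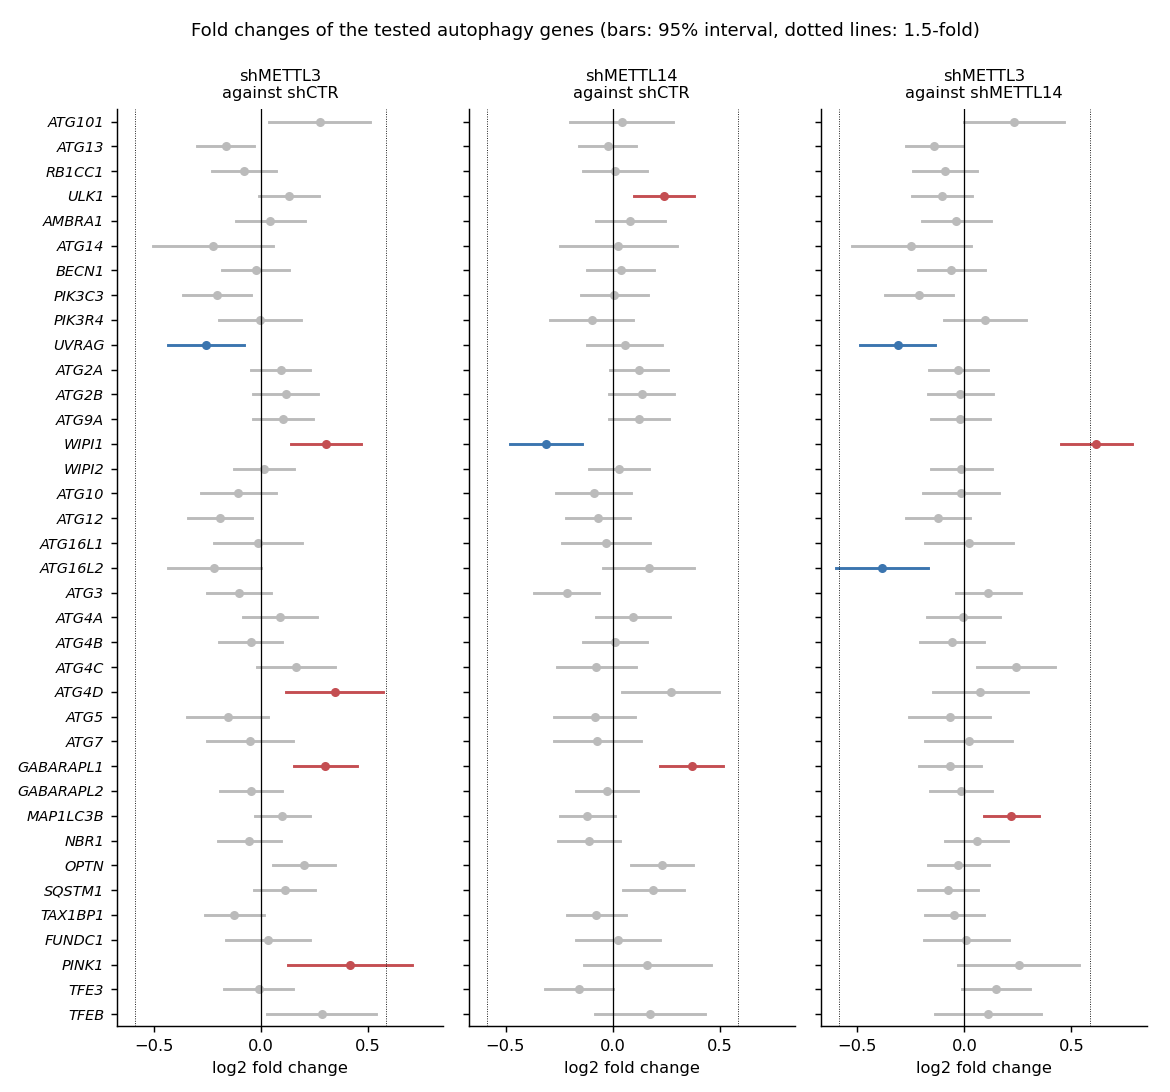
Log2 fold changes of the 37 tested genes with their 95% intervals in the 3 comparisons, red where a gene was called higher, blue where called lower and grey where not called. Dotted lines mark 1.5-fold, and the WIPI1 interval between the knockdowns (0.45 to 0.78) is the one that lies mostly beyond it.

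Levels were compared between genes as CPM per kilobase of the longest GENCODE transcript, which need not be the coding one. The longest coding transcript has 1002 bases for GABARAPL2 against the 2274 used. It has 2688 against 3085 for MAP1LC3B and 2660 against 3821 for PINK1. The order of genes, also at both ends, therefore depends on the transcript used. MAP1LC3B encodes the LC3 protein bound to autophagosome membranes. With the longest transcript, it was highest in shCTR cells at 68.8 ± 0.681 CPM per kb (SD, n = 2). It was followed by GABARAPL2 at 46.1 ± 0.0253, the receptor TAX1BP1 at 40.2 ± 3.17, the receptor NBR1 at 30.9 ± 3.35 and SQSTM1 at 27.2 ± 0.792. At the other end, 3 genes were not tested. ULK2, a paralog of ULK1, had 4 and 5 reads in shCTR, 9 and 6 in shMETTL3 and 0 and 0 in shMETTL14 libraries, where a count of 0 allows up to 3 reads. With no filter on low counts edgeR called it higher in shMETTL3 than shMETTL14 cells. DESeq2, which also kept all 40 genes, did not call it. MAP1LC3A had 0 to 3 reads in every library. GABARAP had 2 to 10 reads in every library, and 30.5% of its exon bases are shared with a same-strand gene model (AC120057.2, 0 reads), and how reads in both were counted is not stated. The level of GABARAP in these cells therefore cannot be read from its count. With the longest transcript, the lowest of the tested genes were PINK1 at 2.12 ± 0.314 and ATG14 at 2.38 ± 0.368 CPM per kb.

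**Figure D3:**
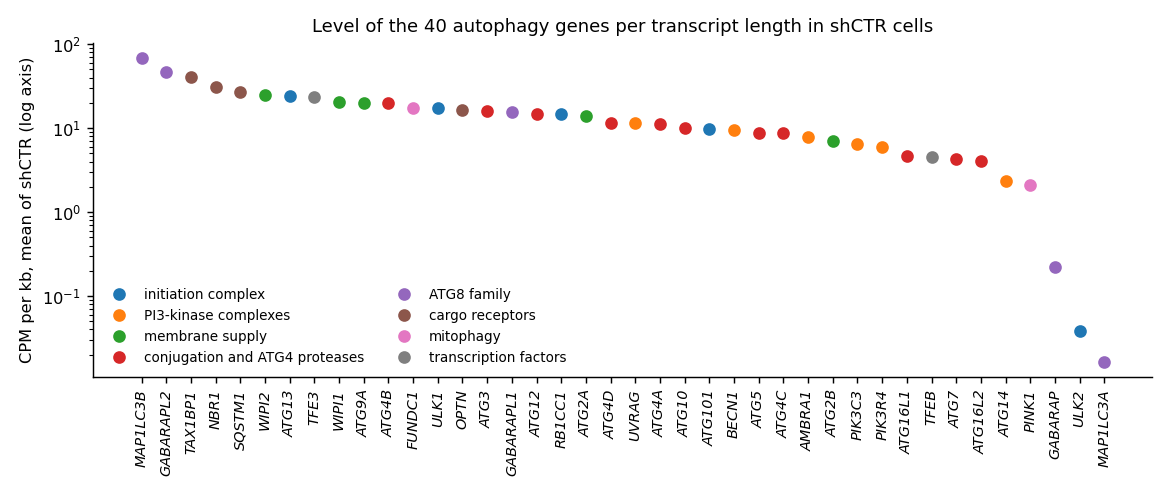
Level of the 40 autophagy genes in shCTR cells in CPM per kb of the longest transcript (log axis), ordered from highest to lowest and coloured by role. The ATG8 family spans the range, from MAP1LC3B (68.8) and GABARAPL2 (46.1) to MAP1LC3A (0.0166). GABARAP is drawn at 0.219, but its level cannot be read from its count.

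GABARAPL1 was the only autophagy gene called higher than shCTR in both knockdowns. It encodes an ATG8 protein of the GABARAP branch and lies on the plus strand of chromosome 12 (ENSG00000139112, GRCh38, chr12:10212458-10223130). Its level was 48.2 and 52.5 CPM in shCTR, 63.1 and 61.1 in shMETTL3 and 65.4 and 64.7 in shMETTL14 cells. All 4 knockdown libraries were above both control libraries. The log2 fold change was 0.30 in shMETTL3 cells (SE 0.0702, adjusted p = 0.00569) and 0.37 in shMETTL14 cells (SE 0.07, adjusted p = 0.00246), which is 1.23- and 1.29-fold, and the difference between the knockdowns did not pass the test (-0.07, 95% interval -0.21 to 0.08). The first call was lost without shMETTL3 replicate 1 (0.28, adjusted p = 0.075) and the second without shMETTL14 replicate 1 (0.36, adjusted p = 0.0641), settings in which the remaining library is assumed to vary like those of the other groups.

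MAP1LC3B, on the plus strand of chromosome 16 (chr16:87383995-87404779), stood on opposite sides of the control in the knockdowns. It was at 210.7 and 213.7 CPM in shCTR, 222.4 and 232.9 in shMETTL3 and 188.9 and 202.1 in shMETTL14 cells, so that the groups did not overlap. Neither knockdown differed from shCTR past the threshold (0.10, adjusted p = 0.276, and -0.12, adjusted p = 0.283), but the knockdowns differed from each other by 0.22 (SE 0.0609, adjusted p = 0.021). That call was lost without either shMETTL3 library (0.26 and 0.19) or either shMETTL14 library (0.17 and 0.27), with adjusted p from 0.0598 to 0.282. GABARAPL2, the third tested member of the family, had log2 fold changes of -0.05 and -0.03 from shCTR.

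WIPI1 had the strongest difference between the knockdowns among the autophagy genes. It encodes a protein that binds phosphatidylinositol 3-phosphate on the forming autophagosome and lies on the minus strand of chromosome 17 (ENSG00000070540, chr17:68420948-68457513). Its level was 38.9 and 37.7 CPM in shCTR, 45.0 and 49.6 in shMETTL3 and 31.5 and 30.3 in shMETTL14 cells. The 3 groups did not overlap, with shMETTL3 above and shMETTL14 below the control. WIPI1 rose by a log2 fold change of 0.31 in shMETTL3 cells (SE 0.0779, adjusted p = 0.0107), fell by 0.31 on the log2 scale in shMETTL14 cells (SE 0.081, adjusted p = 0.0243), and differed by 0.62 between them (1.53-fold, SE 0.0795, adjusted p = 2.2e-05). The difference between the knockdowns kept its call in all 13 alternative settings. The rise in shMETTL3 cells was lost without shMETTL3 replicate 2 (0.24, adjusted p = 0.193), and the fall in shMETTL14 cells was lost without shCTR replicate 1 (-0.29, adjusted p = 0.078), without shMETTL14 replicate 1 (-0.34, adjusted p = 0.154), without shMETTL14 replicate 2 (-0.28, adjusted p = 0.215), with DESeq2 (-0.31, adjusted p = 0.0759) and without a filter on low counts (-0.32, adjusted p = 0.0567). Of the WIPI1 exon bases, 24.3% are also exon of ARSG on the opposite strand, and since the use of strand in counting is not stated, reads of the pair cannot be told apart there. ARSG had 98 to 143 reads per library against 593 to 996 for WIPI1, with log2 fold changes of 0.24, -0.19 and 0.44 in the 3 comparisons, none past the threshold.

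**Figure D4:**
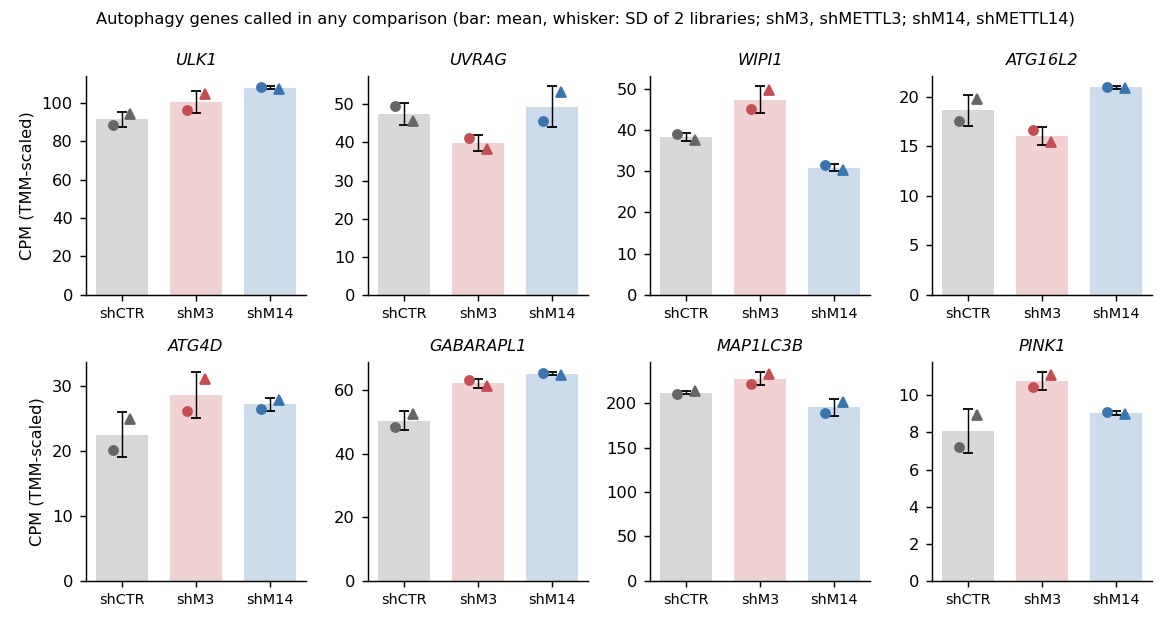
CPM of the 8 autophagy genes called in any comparison in each library (points), with group mean (bar) and SD of 2 libraries (whisker). WIPI1 is highest in shMETTL3 (45.0 and 49.6) and lowest in shMETTL14 (31.5 and 30.3), while GABARAPL1 is above shCTR in both knockdowns.

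The other 4 membrane supply genes did not change past the threshold in any comparison. ATG9A, the transmembrane protein of the vesicles that seed the autophagosome, was at 79.1 and 82.6 CPM in shCTR, 85.7 and 88.3 in shMETTL3 and 91.3 and 84.98 in shMETTL14 cells, with log2 fold changes of 0.11 and 0.12, the first turning to -0.03 with a correction for GC content and length. Of its exon bases, 38.8% are shared with a same-strand gene model. The lipid transfer genes ATG2A and ATG2B had log2 fold changes of 0.09 and 0.12 with METTL3 knockdown, and of 0.12 and 0.14 with METTL14 knockdown. WIPI2, the paralog of WIPI1, had 0.02 and 0.03, with 95% intervals of -0.13 to 0.16 and -0.11 to 0.17.

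Of the initiation complex, 1 of 4 tested genes was called, ULK1 in shMETTL14 cells (25%, against 6.69% of all tested genes). ULK1 encodes the serine/threonine kinase that starts autophagy and lies on the plus strand of chromosome 12 (ENSG00000177169, chr12:131894651-131923167). It was at 88.6 and 94.3 CPM in shCTR, 96.3 and 104.5 in shMETTL3 and 108.5 and 107.4 in shMETTL14 cells. Each knockdown library lay above both control libraries. The log2 fold change was 0.24 in shMETTL14 cells (SE 0.0668, adjusted p = 0.0355) and 0.13 in shMETTL3 cells (SE 0.067, adjusted p = 0.187), and the knockdowns did not differ past the threshold (-0.10, adjusted p = 0.358). The call in shMETTL14 cells held in 4 of 13 alternative settings. Leaving out shCTR replicate 1, either shMETTL3 library or either shMETTL14 library ended it (0.19 to 0.25, adjusted p from 0.0612 to 0.274), as did DESeq2 (adjusted p = 0.0523), no filter on low counts, a fit of the compared groups alone, and a correction for GC content and length, which gave 0.16 and turned the value in shMETTL3 cells to -0.06. With that correction the difference between the knockdowns was -0.23 and passed (adjusted p = 0.00504). The scaffold subunits ATG13 and RB1CC1 and the adaptor ATG101 had log2 fold changes of -0.16, -0.08 and 0.28 in shMETTL3 cells, with adjusted p from 0.0883 to 0.503, and between -0.02 and 0.04 in shMETTL14 cells.

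Of the 6 genes of the PIK3C3 lipid kinase complexes, UVRAG fell in shMETTL3 cells. UVRAG is the subunit that marks the complex acting at endosomes and in autophagosome maturation, and its gene lies on the plus strand of chromosome 11 (ENSG00000198382, chr11:75815167-76143195). It was at 49.5 and 45.5 CPM in shCTR, 41.3 and 38.4 in shMETTL3 and 45.7 and 53.2 in shMETTL14 cells. Both shMETTL3 libraries were below the 4 others, while shMETTL14 and shCTR overlapped. UVRAG fell by 0.26 on the log2 scale against shCTR (SE 0.0842, adjusted p = 0.0435) and differed by -0.31 on the same scale between shMETTL3 and shMETTL14 cells (SE 0.0839, adjusted p = 0.0178). The first call held in 4 of 13 alternative settings and was lost without shCTR replicate 1, without either shMETTL3 library and without either shMETTL14 library (-0.31 to -0.20, adjusted p from 0.0529 to 0.325), and also with library size alone (-0.20, adjusted p = 0.111) and DESeq2 (-0.26, adjusted p = 0.117). The second was lost without either shMETTL3 library (-0.36 and -0.26), without shMETTL14 replicate 2 (-0.20, adjusted p = 0.348) and with DESeq2 (-0.31, adjusted p = 0.0563).

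The catalytic subunit PIK3C3 was at 63.2 and 60.2 CPM in shCTR, 57.0 and 50.1 in shMETTL3 and 64.1 and 59.9 in shMETTL14 cells, with a log2 fold change of -0.21 in shMETTL3 cells that was not past the threshold (adjusted p = 0.0696). It passed without shCTR replicate 2 (-0.24, adjusted p = 0.0437). Its difference between the knockdowns was also -0.21 (adjusted p = 0.0748), and passed in 5 of 13 alternative settings, among them a correction for GC content and length (adjusted p = 0.0287), a fit of the compared groups alone (adjusted p = 0.0416), and the fits without shCTR replicate 1 (adjusted p = 0.0363) or 2 (adjusted p = 0.0355). BECN1, the scaffold shared by both complexes, was at 45.4 and 45.9 CPM in shCTR, 47.2 and 42.6 in shMETTL3 and 47.1 and 46.6 in shMETTL14 cells. The shMETTL3 libraries lay on either side of the controls and the shMETTL14 libraries just above them, and the log2 fold changes of -0.02 and 0.04 had 95% intervals of -0.18 to 0.13 and -0.12 to 0.19. ATG14, PIK3R4 and AMBRA1 had log2 fold changes between -0.22 and 0.04 in shMETTL3 cells and between -0.10 and 0.08 in shMETTL14 cells, none past the threshold.

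The conjugation system and the ATG4 proteases, which cleave ATG8 proteins before and after conjugation, held 11 tested genes. In shMETTL3 cells 1 was called (9.09%, against 16.5% of all tested genes), and 1 between the knockdowns (9.09%, against 12.1%). None was called in shMETTL14 cells by edgeR or DESeq2, where edgeR called 6.69% of all tested genes. There 2 of 11 had an unadjusted p under 0.05, against 3665 of all 17686. ATG4D, on the plus strand of chromosome 19 (ENSG00000130734, chr19:10543895-10553418), was at 20.1 and 24.97 CPM in shCTR, 26.1 and 31.1 in shMETTL3 and 26.5 and 27.9 in shMETTL14 cells. Each knockdown library was above both controls, but the shCTR libraries were themselves far apart (SD 3.45 CPM). The log2 fold change was 0.35 in shMETTL3 cells (SE 0.108, adjusted p = 0.0331) and 0.27 in shMETTL14 cells (SE 0.109, adjusted p = 0.153). The call held in 5 of 13 alternative settings and was lost without shCTR replicate 1 (0.19, adjusted p = 0.292), without shMETTL3 replicate 2 (0.22, adjusted p = 0.379), without either shMETTL14 library (0.34 and 0.35), with DESeq2 (0.34, adjusted p = 0.112), and with a correction for GC content and length (0.20, adjusted p = 0.122). Without shCTR replicate 2, the value in shMETTL14 cells passed (0.44, adjusted p = 0.0204). KRI1, which overlaps 15% of the ATG4D exon bases on the opposite strand, had 1502 to 1786 reads per library, more than the 397 to 624 of ATG4D, and log2 fold changes of -0.12 and 0.05.

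ATG16L2, a paralog of the ATG16L1 subunit of the conjugation machinery, was at 17.5 and 19.7 CPM in shCTR, 16.7 and 15.4 in shMETTL3 and 21.0 and 20.9 in shMETTL14 cells (ENSG00000168010, plus strand, chr11:72814308-72843674). Both shMETTL3 libraries were below and both shMETTL14 libraries above the controls. The knockdowns differed by -0.39 (SE 0.103, adjusted p = 0.0169), while neither passed against shCTR (-0.22, adjusted p = 0.171, and 0.17, adjusted p = 0.369). With a correction for GC content and length, the value in shMETTL3 cells was -0.36 and passed (adjusted p = 0.0106). The difference between the knockdowns lost its call without either shMETTL3 library (-0.44 and -0.33), without either shMETTL14 library (-0.38 and -0.39) and with DESeq2 (-0.39). ATG16L1 itself had log2 fold changes of -0.01 and -0.03.

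The core conjugation genes ATG5 and ATG7 were close to control in both knockdowns. ATG7, the E1-like enzyme, was at 22.2 and 20.6 CPM in shCTR, 20.2 and 21.2 in shMETTL3 and 21.1 and 19.7 in shMETTL14 cells, and the groups overlapped (log2 fold changes -0.05 and -0.07, 95% intervals -0.25 to 0.15 and -0.27 to 0.13). ATG5, which is joined to ATG12, was at 29.5 and 26.1 CPM in shCTR, 24.8 and 25.2 in shMETTL3 and 25.6 and 26.9 in shMETTL14 cells. Its log2 fold changes were -0.15 (adjusted p = 0.269) and -0.08 (adjusted p = 0.655). The E2-like ATG3 was at 48.8 and 48.7 CPM in shCTR and 42.8 and 41.2 in shMETTL14 cells (log2 fold change -0.21, adjusted p = 0.0833). ATG12, ATG10, ATG4A, ATG4B and ATG4C had log2 fold changes between -0.19 and 0.17 in shMETTL3 cells and between -0.09 and 0.09 in shMETTL14 cells.

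None of the 4 cargo receptor genes was called by edgeR or DESeq2 in any comparison. Over all tested genes, edgeR called 16.5% in shMETTL3 cells, 6.69% in shMETTL14 cells and 12.1% between the knockdowns. At an unadjusted p under 0.05 there was 1 receptor gene in shMETTL3, 2 in shMETTL14 and 0 between the knockdowns. The counts over all 17686 tested genes were 5291, 3665 and 4417. OPTN, a receptor for damaged mitochondria and bacteria, came nearest in both knockdowns. It was at 58.8 and 58.1 CPM in shCTR, 70.4 and 64.2 in shMETTL3 and 69.0 and 68.3 in shMETTL14 cells, so that all 4 knockdown libraries were above the controls. Its log2 fold changes were 0.20 (SE 0.0694, adjusted p = 0.051) and 0.23 (SE 0.0694, adjusted p = 0.05, just above the threshold before rounding), and both passed under scaling by library size alone and with a correction for GC content and length. OPTN was named for this after its values were seen. SQSTM1, which encodes p62, was at 79.5 and 82.8 CPM in shCTR, 89.7 and 85.8 in shMETTL3 and 96.6 and 88.5 in shMETTL14 cells (log2 fold changes 0.11, adjusted p = 0.284, and 0.19, adjusted p = 0.107). Of its exon bases, 20.7% overlap MRNIP on the opposite strand. NBR1 and TAX1BP1 had log2 fold changes between -0.12 and -0.05.

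Of the mitophagy genes, PINK1 rose in shMETTL3 cells and FUNDC1, an outer membrane receptor, did not change past the threshold (0.03 and 0.02). PINK1, the kinase that marks damaged mitochondria, lies on the plus strand of chromosome 1 (ENSG00000158828, chr1:20633455-20651511). It had 143 and 171 reads in shCTR, 205 and 223 in shMETTL3 and 179 and 176 in shMETTL14 libraries, the fewest of the called genes, which came to 7.24 and 8.93, 10.4 and 11.1, and 9.11 and 8.98 CPM. The log2 fold change was 0.42 in shMETTL3 cells (SE 0.138, adjusted p = 0.0452) and 0.16 in shMETTL14 cells (SE 0.141, adjusted p = 0.562), and their difference of 0.25 did not pass (adjusted p = 0.265). The call held in 4 of 13 alternative settings and was lost without shCTR replicate 1 (0.27, adjusted p = 0.287), without either shMETTL3 library (0.46 and 0.37), without either shMETTL14 library (0.41 and 0.42), with DESeq2 (0.41, adjusted p = 0.215) and with a correction for GC content and length (0.37, adjusted p = 0.0548). PINK1-AS covers 39.4% of the PINK1 exon bases on the opposite strand and had 10 to 26 reads per library.

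TFEB and TFE3 encode related transcription factors that drive lysosomal and autophagy genes, and neither was called by edgeR or DESeq2. TFEB was at 10.8 and 12.8 CPM in shCTR, 14.8 and 13.9 in shMETTL3 and 12.6 and 14.0 in shMETTL14 cells. Its log2 fold changes were 0.29 (SE 0.121, adjusted p = 0.117) and 0.17 (SE 0.123, adjusted p = 0.455), and the first passed without shCTR replicate 2 (0.41, adjusted p = 0.0401). TFE3 was at 72.8 and 86.8 CPM in shCTR, 77.9 and 80.6 in shMETTL3 and 71.3 and 71.9 in shMETTL14 cells. The control libraries enclosed both shMETTL3 libraries, and the log2 fold changes were -0.01 and -0.16 (adjusted p = 0.256), the second passing without shCTR replicate 1 (-0.28, adjusted p = 0.0201) and with a correction for GC content and length (-0.20, adjusted p = 0.0345).

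The E-box CACGTG, which reads the same on both strands, is the core of the element that TFEB and TFE3 bind. In RefSeq promoter windows of 300 bases (250 before and 50 after each start, GRCh38.p14) it was found for 2 of the 35 autophagy genes with a window (5.71%), against 8.77% of all 27305 genes with one. By window, it was in 2 of 45 (4.44%) against 7.26% of all 35116. RB1CC1, UVRAG, ATG4D, MAP1LC3A and PINK1 had no window. In the lysosome list (below) it was found for 11 of 33 genes with a window (33.3%). These were 6 of the 14 called higher in either knockdown (42.9%) and 5 of the 19 others (26.3%), and the difference was not tested. LAMP1 and CLN3, which were not called, also held it, as did CD63, which was called lower in shMETTL3 cells (-0.20). The stretches of 30 bases around the E-box in the 2 autophagy genes, and in the lysosomal genes MCOLN1 and CTSA, which were higher in both knockdowns (below), are shown to place the motif, given in capitals. They were chosen after the values were seen, and a match is a description of the sequence, not a binding site.
ATG14, minus strand, chr14:55411834-55411863: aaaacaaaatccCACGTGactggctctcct
ATG3, minus strand, chr3:112561963-112561992: cctttctcacgtCACGTGccgggagagtct
ATG3, minus strand, chr3:112561940-112561969: agagtctagtgtCACGTGaggccccggtgg
MCOLN1, plus strand, chr19:7522571-7522600: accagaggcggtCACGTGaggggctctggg
MCOLN1, plus strand, chr19:7522598-7522627: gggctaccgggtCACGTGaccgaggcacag
CTSA, plus strand, chr20:45891281-45891310: gaggaagactgtCACGTGgcgccggagttc
CTSA, plus strand, chr20:45891298-45891327: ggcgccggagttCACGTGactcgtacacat

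GGACT is a common form of the sequence at which METTL3 and METTL14 methylate adenosine. Counted on the sense strand of the longest coding GENCODE transcript, the 37 tested autophagy genes had a median of 0.998 GGACT per kb, from 0.23 in ATG13 to 2.57 in ATG4D, and each had at least 1. The median over 12512 tested genes with a coding transcript was 0.933, with quartiles of 0.568 and 1.39, and only 973 of them had none. Of the called genes, ATG4D had 5 (2.57 per kb), UVRAG 8 (1.94 per kb), ULK1 7 (1.32 per kb) and GABARAPL1 3 (1.31 per kb). Below the median of all genes were ATG16L2 with 2 (0.892 per kb), WIPI1 with 1 (0.546 per kb), PINK1 with 1 (0.376 per kb) and MAP1LC3B with 1 (0.372 per kb). Methylation itself was not measured in these libraries.

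Beyond the 40 genes, 6 lists of genes that act with them were read from the same fits, 167 genes of which 159 were tested. In shMETTL3 cells 33 of the 159 (20.8%) were called, 23 higher and 10 lower, where 16.5% of all tested genes were called. In shMETTL14 cells 24 (15.1%, against 6.69%) were called, 19 higher and 5 lower, and 29 (18.2%, against 12.1%) differed between the knockdowns. With library size alone the first count was 40, 36 higher and 4 lower, while over all genes the calls in shMETTL3 cells went from 1544 higher and 1368 lower to 2158 and 858, those in shMETTL14 cells from 607 and 577 to 743 and 443, and those between the knockdowns from 1177 and 971 to 1399 and 754. The same setting gave 6 higher and 0 lower autophagy genes in shMETTL3 cells and moved their median log2 fold change from -0.002 to 0.05, where that of all genes moved to 0.06.

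The lysosome list, 53 genes of hydrolases, membrane proteins and proton pump subunits, held 14 of these 33 calls in shMETTL3 cells, 18 of 24 in shMETTL14 cells and 11 of 29 between the knockdowns. In shMETTL3 cells 11 rose and 3 fell (26.4% called against 16.5% of all tested genes, median log2 fold change 0.07), and in shMETTL14 cells 16 rose and 2 fell (34% called against 6.69%, median 0.13). With no filter on low counts the second count was 10. Calls over all genes then went from 607 higher and 577 lower of 17686 to 387 and 379 of 37080. The second count also fell without shMETTL14 replicate 1, shMETTL14 replicate 2 or shCTR replicate 1, and the first without either shMETTL3 library. Calls over all genes fell in the same fits. CTSL, a cysteine protease, was at 53.4 and 56.6 CPM in shCTR, 70.5 and 66.7 in shMETTL3 and 101.7 and 93.8 in shMETTL14 cells, with log2 fold changes of 0.32 (adjusted p = 0.00442) and 0.83 (adjusted p = 3.04e-07). MCOLN1, the calcium channel of the lysosome membrane, was at 9.11 and 10.2, 13.8 and 16.3, and 13.7 and 13.5 CPM (0.64, adjusted p = 0.00139, and 0.50, adjusted p = 0.0204). CTSA, a protective carboxypeptidase, was at 23.6 and 26.9, 30.5 and 35.6, and 35.9 and 33.8 CPM (0.39, adjusted p = 0.0081, and 0.47, adjusted p = 0.00448). For all 3 genes every knockdown library was above both control libraries. They were named from genes called higher in both knockdowns, so this separation adds no support. How many of all genes separate this way was not counted. ATP6V0D1, a proton pump subunit, moved in opposite directions, from 56.7 and 62.7 CPM in shCTR to 76.1 and 78.7 in shMETTL3 and 43.2 and 43.5 in shMETTL14 cells, a difference of 0.84 between the knockdowns (adjusted p = 1.41e-07). LIPA, the lysosomal acid lipase, rose in shMETTL3 cells from 23 and 28 reads to 60 and 66 (log2 fold change 1.27, adjusted p = 0.00264), and had 16 and 22 in shMETTL14 libraries.

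**Figure D5:**
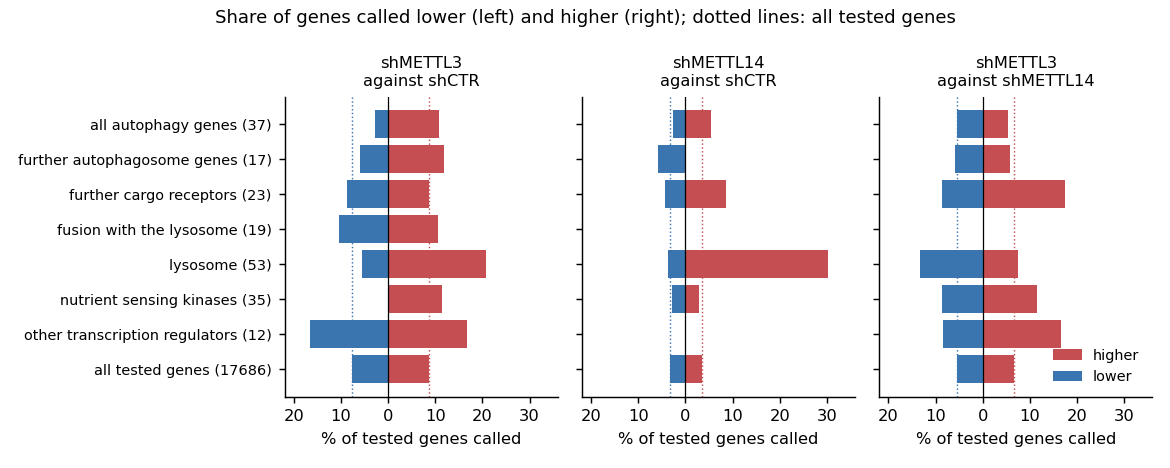
Share of tested genes called lower (left, blue) and higher (right, red) in each list and comparison, with the number tested in parentheses and dotted lines at the share of all tested genes. The lysosome list has 16 of 53 genes called higher in shMETTL14 cells, while the bars of the 37 autophagy genes stay near the dotted lines.

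Among 17 tested further genes of the autophagosome, 2 rose and 1 fell in shMETTL3 cells (17.6% called) and 1 fell in shMETTL14 cells (5.88%), shares near the 16.5% and 6.69% of all tested genes. TP53INP2, a nuclear protein that recruits LC3 to membranes, went from 14.6 and 14.4 CPM in shCTR to 22.0 and 26.7 in shMETTL3 cells (log2 fold change 0.75, adjusted p = 0.000104) and was at 18.9 and 17.6 in shMETTL14 cells (0.33, adjusted p = 0.0893). VMP1, an endoplasmic reticulum protein needed for autophagosome formation, fell from 318.6 and 272.5 CPM to 211.4 and 216.5 in shMETTL3 cells (-0.47, adjusted p = 0.000135). TMEM41B, which acts with VMP1, fell by 0.35 on the log2 scale in shMETTL14 cells (adjusted p = 0.00427).

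Of 23 further cargo receptors and their regulators, 2 rose and 2 fell in shMETTL3 cells (17.4% called, against 16.5% of all tested genes) and 2 rose and 1 fell in shMETTL14 cells (13%, against 6.69%). WDFY3, the scaffold ALFY that takes up protein aggregates, was at 11.4 and 8.31 CPM in shCTR, 29.7 and 28.6 in shMETTL3 and 17.3 and 13.9 in shMETTL14 cells. It rose by log2 fold changes of 1.56 (SE 0.131, adjusted p = 1.35e-07) and 0.66 (SE 0.139, adjusted p = 0.00634), and the difference of 0.90 between the knockdowns also passed (adjusted p = 4.42e-05). Between the knockdowns 6 of the 23 were called (26.1%, against 12.1% of all tested genes), 4 higher and 2 lower in shMETTL3 than in shMETTL14 cells. ATL3 was among the higher (0.36, adjusted p = 0.00244). The 2 lower were BNIP3L, a mitophagy receptor (-0.40, adjusted p = 0.00247), and the ferritin receptor NCOA4 (-0.29, adjusted p = 0.00306).

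Of the 19 genes of fusion with the lysosome, edgeR and DESeq2 called none in shMETTL14 cells, where edgeR called 6.69% of all tested genes. There 3 had an unadjusted p under 0.05, against 3665 of all 17686 tested genes. In shMETTL3 cells 2 of the 19 were called higher and 2 lower (21.1%, against 16.5% of all tested genes), 1 in all with DESeq2. STX17, the syntaxin of the autophagosome, and TECPR2 rose (0.24, adjusted p = 0.0425, and 0.62, adjusted p = 0.00659), while VAMP8, a SNARE partner of STX17, and the tether EPG5 fell (-0.26, adjusted p = 0.0137, and -0.27, adjusted p = 0.0384). Of 35 tested nutrient sensing genes, 4 rose in shMETTL3 cells (11.4%, against 8.73% of all tested genes), with PRKAG2, a regulatory subunit of AMPK, at 2.38 and 2.87 CPM in shCTR and 6.21 and 5.28 in shMETTL3 cells (log2 fold change 1.13, adjusted p = 0.000808). SESN3 (0.83), RRAGD (0.77) and RPTOR (0.24) were the others. In shMETTL14 cells FNIP2 rose by 0.37 and DDIT4, an inhibitor of mTORC1, fell by 0.34 on the log2 scale (5.71% called, against 6.69% of all tested genes). Of 12 other transcription regulators, MITF, the relative of TFEB, fell from 41.2 and 39.2 CPM to 26.5 and 25.7 in shMETTL3 cells (log2 fold change -0.62, adjusted p = 4.39e-05) and was at 31.7 and 35.4 in shMETTL14 cells (-0.26, adjusted p = 0.0617). FOXO3 (0.31) and E2F1 (0.49) rose and NCOR1 (-0.21) fell in shMETTL3 cells, which makes 4 of 12 called (33.3%, against 16.5%). None of the 12 was called in shMETTL14 cells by edgeR or DESeq2, where edgeR called 6.69% of all tested genes. An unadjusted p under 0.05 was reached there by 3 of the 12, against 3665 of all 17686.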

How the data were processed

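RNA-seq was analysed for 6 libraries of K562 cells, 2 per group, grouped by the submitters' labels. The authors deposited raw counts, whole-number reads per gene that were not normalized. The submitters' processing notes name HTSeq 0.6.1 and hg38, whose roles they do not give; the aligner, annotation and strand setting are not given in the sources used here. Of 61661 identifiers, 986 lay outside the annotation (0.635% to 0.703% of reads, kept in library totals). Symbols came from a gene name table (56558) and GENCODE 29 (438).

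Counts were tested with edgeR 4.0.16 in R 4.3.3 (TMM, filterByExpr with minimum count 10, quasi-likelihood test, 1 fit over 6 libraries, Benjamini-Hochberg over 17686 genes, threshold 0.05). CPM values are TMM-scaled. SE is the absolute log2 fold change over the square root of F. On 5 simulated sets for shMETTL3 against shCTR, with 200 genes changed 2-fold and 17313 tested on average, 79% were recovered and 4.51% of calls were false. Those changes were larger than any called among the autophagy genes (at most 1.53-fold), and all groups were simulated with the same spread. The shares therefore do not carry over to the calls reported here. Libraries of a group differed beyond sampling noise (mean chi-square per gene 5.51, 3.1 and 2.59 for shCTR, shMETTL3 and shMETTL14).

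The autophagy genes, the other lists and the markers were chosen with earlier results of these data known. Genes called in any comparison were named with all values, as were ULK1, ULK2, BECN1, PIK3C3, ATG5, ATG7, ATG9A, MAP1LC3B, GABARAPL1, SQSTM1, PINK1, TFEB and TFE3. For the other lists, up to 4 called genes of the largest change per comparison, with at least 10 reads in every library compared, could be named. Alternatives were DESeq2 1.42.0, its size factors, library size alone, no filter, compared groups only, a replicate block, removal of a GC and length trend (mgcv 1.9.3, lengths for 94.2% of tested genes) and each library left out. For the lysosome list, those beyond scaling and DESeq2 were chosen after seeing the data. Exon overlaps and transcripts came from GENCODE 29, promoter windows from RefSeq (GRCh38.p14). Intervals cover counting error and spread between these libraries, and no molecular identifiers are named.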

Additional observations from a re-analysis of the deposited data

Results flagged for a closer look

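The difference between the knockdowns passed edgeR's test for 4 of 37 autophagy genes (10.8%, against 12.1% of all tested genes). The responses of these genes to the knockdowns thus differed by a test of the difference itself. The log2 difference of shMETTL3 from shMETTL14 was 0.62 for WIPI1 (adjusted p = 2.2e-05), -0.39 for ATG16L2 (adjusted p = 0.0169), -0.31 for UVRAG (adjusted p = 0.0178) and 0.22 for MAP1LC3B (adjusted p = 0.021). WIPI1 was called in each knockdown against shCTR, in opposite directions. With DESeq2, WIPI1 and MAP1LC3B passed and the others did not. Groups of 2 libraries are too small for the check of single outlying libraries.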

How the results depend on the processing

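Of 624 alternative values of the 48 log2 fold changes of named autophagy genes, 532 kept their direction and side of the threshold, 56 kept the direction but lost the call, 13 gained one and 23 changed sign. Those 23 all belong to log2 fold changes that were not called. The count of autophagy genes called in shMETTL3 cells (5) was 2 with DESeq2, 2 without a filter, 2 with the compared groups only and 8 with a correction for GC content and length (3 of the 5 among them), and 1 to 10 with a library left out. The count in shMETTL14 cells (3) was 1 with DESeq2, 1 without a filter and 0 to 5 with a library left out. The count between the knockdowns (4) was 2 with DESeq2, 8 with a correction for GC content and length and 1 to 6 with a library left out. Leaving out shMETTL3 replicate 2 gave the lowest count in the first comparison and shCTR replicate 2 the highest (10), and leaving out shMETTL14 replicate 1 gave 0 in the second. Calls over all genes moved as well. In shMETTL3 cells 1544 higher and 1368 lower became 777 and 980 with DESeq2 and 1135 and 1050 without a filter. They were 1320 and 1087 with the compared groups only and 1638 and 1920 with the correction. In shMETTL14 cells 607 and 577 became 324 and 388 with DESeq2 and 387 and 379 without a filter. Between the knockdowns 1177 and 971 became 623 and 619 with DESeq2 and 1491 and 1618 with the correction. The causes were not tested, except that leaving out a library leaves fewer samples and no filter adds genes to the adjustment.

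The sign changed with library size alone for BECN1 (0.032), ATG7 (0.00533) and TFE3 (0.0461) in shMETTL3 cells and for ATG9A between the knockdowns (0.0108). It changed with a correction for GC content and length for ULK1 (-0.062) and ATG9A (-0.032) in shMETTL3 cells and for ATG7 (-0.00921) and ATG4D (-0.00841) between the knockdowns. With a library left out, the values crossed 0 in shMETTL3 cells for BECN1 (-0.099 to 0.0516), ATG7 (-0.105 to 0.00182) and TFE3 (-0.134 to 0.119), in shMETTL14 cells for PIK3C3 (-0.0427 to 0.0546), UVRAG (-0.0586 to 0.162) and ATG5 (-0.17 to 0.00642), and between the knockdowns for BECN1 (-0.135 to 0.016), ATG9A (-0.0682 to 0.0314), ATG7 (-0.0246 to 0.0662) and ATG4D (-0.0539 to 0.196).

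With the replicate number as a block, 7, 4 and 5 autophagy genes were called in the 3 comparisons, among them every gene called without it. Calls over all 17686 genes rose too, to 1690 higher and 1574 lower, 735 and 724, and 1330 and 1148. The block added OPTN and PIK3C3 (-0.21, adjusted p = 0.0387) in shMETTL3 cells, OPTN in shMETTL14 cells and PIK3C3 (-0.21, adjusted p = 0.04) between the knockdowns. Deviations of replicate 1 from its group mean correlated at 0.324 between shCTR and shMETTL3, -0.093 between shCTR and shMETTL14 and -0.0128 between the knockdowns, over 6572 genes, so the numbers were not taken to pair the libraries.

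Depth and 2 libraries per group limit what can pass the test. The smallest change called among the 37 tested genes was 1.16-fold (MAP1LC3B between the knockdowns). The filter on low counts removed ULK2, MAP1LC3A and GABARAP. Without the filter, edgeR called ULK2 between the knockdowns, and DESeq2 did not call it.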
